A study of Mus musculus with 4 samples.

Results

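The genes described here encode 8 hormone receptors of the osteoblast lineage, namely Pth1r, Nr3c1, Esr1, Esr2, Thra, Thrb, Ghr and Lepr, and the measurement is where the transcription factor Runx2 was bound around them. The members were chosen by name, with earlier results of these data known. Every Runx2 peak that shared at least 1 bp with a gene body in mm9, widened by 20 kb on each side, was assigned to the gene, for 8 of 22359 protein-coding genes. The day 0 list gave 34 of its 25457 peaks, the day 9 list 79 of 60596 and the day 28 list 58 of 40330. Peaks of different days that shared at least 1 bp were joined into 82 regions, of 67703 in all.

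Runx2 was mapped by ChIP-Seq with the M70 antibody in MC3T3-E1 subclone 4, a clonal line of C57BL/6 mouse calvarial preosteoblasts used at passages 28-31. Day 0 cells were proliferating preosteoblasts grown without added ascorbic acid. Cells were then induced with ascorbic acid and beta-glycerophosphate, and were depositing matrix at day 9 and mineralizing at day 28. The libraries of each day, 2 per day, had been pooled before peaks were called against input DNA of day 9 cells, so each day is 1 list without replicate error and no test between days was made. The lists hold positions and scores and no read counts, so the depth behind a peak is not known from them. The study reports more raw reads for proliferating cells than for either later stage. The list of proliferating cells was nevertheless the shortest. The effect of read depth on peak numbers and scores was not tested. The lists measure Runx2 on DNA and not the expression of the receptors.

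Runx2 is the runt-domain factor required for osteoblast formation, and it binds a short core element in DNA. The receptor for parathyroid hormone, encoded by Pth1r, is a G protein-coupled receptor of the cell surface that signals mainly through cyclic AMP and is abundant in cells of the osteoblast lineage. Nr3c1 (the glucocorticoid receptor), Esr1 and Esr2 (estrogen receptors alpha and beta) and Thra and Thrb (thyroid hormone receptors alpha and beta) are nuclear receptors, which bind DNA and regulate transcription when their hormone is present. Ghr (the growth hormone receptor) and Lepr (the leptin receptor) are cytokine-type receptors that act through Janus kinases and STAT factors. Bone growth and turnover respond to each of these hormones.

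The sequences of 6 windows are given as picked examples. They do not represent all member regions, and none of them lies over a transcription start site. All are read from the plus strand of mm9, 5′ to 3′, and capitals mark TGTGGT or its reverse complement, searched on both strands as the core Runx element. The windows are the 250 bases at the centre of the highest-scoring or runner-up peak of the gene. The exception is Pth1r, where the centre held no core element and the stretch of the same peak with the most is shown. They are 1 of the Pth1r regions that scored 3100 (intron 4), the highest-scoring region of Esr1 (intron 5), Ghr (intron 1) and Lepr (upstream), and the runner-up of Thrb (intron 2, the region with its highest score at day 0) and of Esr2 (upstream, a tandem repeat). They lie at chr9:110631255-110631504 for Pth1r, chr10:5559303-5559552 for Esr1, chr15:3459184-3459433 for Ghr, chr4:101387872-101388121 for Lepr, chr14:18751244-18751493 for Thrb and chr12:77281046-77281295 for Esr2.
Pth1r intron 4: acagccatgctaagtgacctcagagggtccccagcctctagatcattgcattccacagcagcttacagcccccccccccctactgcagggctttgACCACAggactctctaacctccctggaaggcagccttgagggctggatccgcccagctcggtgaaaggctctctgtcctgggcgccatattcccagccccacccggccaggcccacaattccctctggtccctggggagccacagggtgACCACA
Esr1 intron 5: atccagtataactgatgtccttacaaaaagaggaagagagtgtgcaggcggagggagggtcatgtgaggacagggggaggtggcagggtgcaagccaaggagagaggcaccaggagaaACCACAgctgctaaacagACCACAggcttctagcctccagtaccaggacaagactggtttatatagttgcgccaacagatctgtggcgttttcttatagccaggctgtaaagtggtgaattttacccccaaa
Ghr intron 1: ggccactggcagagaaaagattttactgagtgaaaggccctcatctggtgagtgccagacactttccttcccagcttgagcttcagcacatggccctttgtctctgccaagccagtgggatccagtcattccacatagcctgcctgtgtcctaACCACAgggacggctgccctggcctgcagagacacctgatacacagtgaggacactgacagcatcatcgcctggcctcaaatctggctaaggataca
Lepr upstream: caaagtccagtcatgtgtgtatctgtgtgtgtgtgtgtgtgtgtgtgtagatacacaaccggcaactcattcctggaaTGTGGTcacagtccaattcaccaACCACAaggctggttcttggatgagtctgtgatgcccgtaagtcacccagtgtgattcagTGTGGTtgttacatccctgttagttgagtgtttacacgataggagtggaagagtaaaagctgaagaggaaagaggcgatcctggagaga
Thrb intron 2: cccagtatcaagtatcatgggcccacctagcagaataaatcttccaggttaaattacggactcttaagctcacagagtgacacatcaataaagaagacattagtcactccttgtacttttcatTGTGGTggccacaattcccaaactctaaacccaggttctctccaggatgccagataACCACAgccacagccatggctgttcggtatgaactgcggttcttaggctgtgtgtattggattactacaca
Esr2 upstream: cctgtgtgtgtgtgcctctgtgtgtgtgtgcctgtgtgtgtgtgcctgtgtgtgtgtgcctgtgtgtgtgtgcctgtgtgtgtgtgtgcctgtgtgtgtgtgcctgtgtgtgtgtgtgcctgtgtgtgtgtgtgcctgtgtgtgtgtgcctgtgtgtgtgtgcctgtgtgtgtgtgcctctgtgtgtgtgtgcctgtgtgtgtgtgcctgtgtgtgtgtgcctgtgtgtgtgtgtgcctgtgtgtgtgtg

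The printed windows held 2 core elements for Pth1r, 2 for Esr1, 1 for Ghr, 3 for Lepr, 2 for Thrb and 0 for Esr2. In the Esr2 window, 84.8% of the bases lay in runs of at least 3 TG or CA dinucleotides. The highest-scoring Thra peak held no core element anywhere in its length, and its sequence is not shown. The central 250 bases of the highest-scoring Thrb peak, at the promoter, held 0 and are not shown either. Over all members, 20 of 79 day 9 peaks had a core element within 50 bp of the centre, so the printed windows are not typical in this.

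Runx2 peaks were found at all 8 receptors on each of the 3 days. Of all protein-coding genes, 65.0% had at least 1 peak at day 0, 77.0% at day 9 and 71.2% at day 28, and 62.7% had a peak on each of the 3 days. More peaks were listed at day 9 than at day 0 for 7 of the 8 members, with Thrb the exception, against 60.3% of all genes. Fewer peaks were listed at day 28 than at day 9 for 6 of 8, against 50.2% of all genes, and more for 1 of 8 (Thrb), against 6.58%. The summed number of member peaks at day 9 was 2.32 times that of day 0, against 2.38 for the whole lists, and at day 28 it was 0.734 times that of day 9, against 0.666 for the whole lists.

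The lists differ in length, and this touched most members. When each list was reduced to its 25457 highest-scoring peaks, 3 of 8 members (Pth1r, Esr1 and Esr2) had more peaks at day 9 than at day 0, against 22.9% of all genes. Esr2 then had 2, 3 and 1 peaks, and those of day 9 included both of its upstream peaks over TG repeats, described below. Pth1r and Esr1 (2 of 8) had more at day 28 than at day 0, against 20.4% of all genes. Pth1r then had 4, 18 and 10 peaks at days 0, 9 and 28, whereas Thra had 11, 9 and 9, Thrb 7, 1 and 4, and Ghr 6, 4 and 6. The day 9 excess of Pth1r was thus present with lists of equal length, and that of Nr3c1, Thra, Ghr and Lepr was not.

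**Figure D1:**
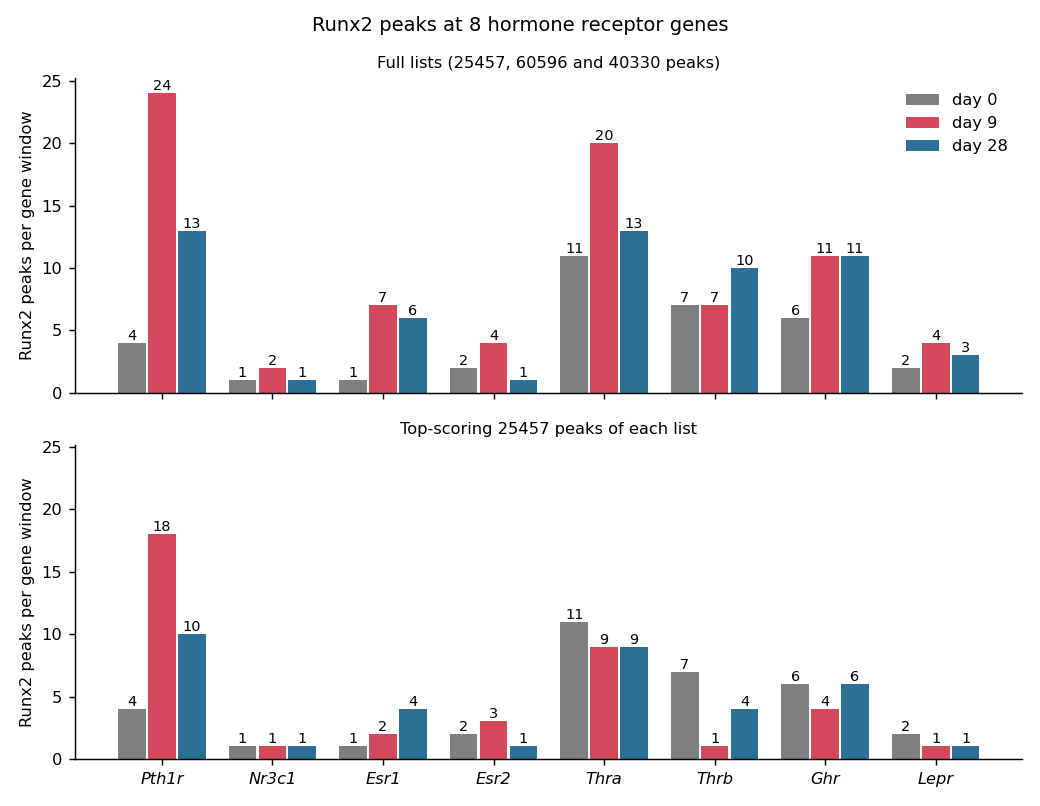
Number of Runx2 peaks (y axis) in the window of each receptor gene (x axis) at days 0, 9 and 28, with the full lists in the upper panel and the 25457 top-scoring peaks of each list in the lower panel. Bars are single counts from 1 pooled list per day, without error. Pth1r has 24 day 9 peaks in the full list and 18 in the reduced list, the most of the 8 genes in both.

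Pth1r (ENSMUSG00000032492, chr9:110624592-110649649, minus strand) had 4, 24 and 13 peaks in the lists of days 0, 9 and 28. The peaks covered 3.18 kb, 25.8 kb and 17.9 kb on the 3 days. The day 9 list thus marked the receptor and its flanks with a dense run of peaks, of which 11 overlapped the gene body, 7 were centred upstream of the gene start and 6 downstream of the gene end. Of all genes, 140 (0.626%) had at least 24 day 9 peaks. Among the 1190 genes whose length was within 10% of that of Pth1r, the median was 3 day 9 peaks and no other gene reached 24. With the reduced lists, Pth1r gained 14 peaks from day 0 to day 9, and 7 of 22359 genes, Pth1r included, gained that many or more. Neighbouring peaks were part of this number, since joining peaks of a list that lay closer than 500 bp left 4, 14 and 11.

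The strongest Pth1r regions lay inside the gene and on both sides of it. Each score is that of MACS, the negative log10 of its p-value multiplied by 10, and its percentile is the share of peaks of the same day that scored lower, with ties at their middle rank. The lists differ in length, so percentiles of different days are not on 1 scale. For some regions compared between days, the rank among the 18584 regions with a peak on all 3 days is therefore given as well. This was a choice made after seeing the data, and the order of the days can differ from that of the scores. A region in intron 4 (chr9:110630991-110633077) scored 447.01 at day 0, 3100.00 at day 9 and 3100.00 at day 28, or the 69.3, 97.4 and 97.8 percentiles. Many peaks of each list share the score 3100, so peaks at that value cannot be ranked among themselves. Whether a number above 3100 marks a stronger peak than that shared value is not known from the lists. A region in intron 9 scored 547.44, 2778.21 and 1564.70. A region over the internal transcription starts, 3459 and 4535 bp inside the gene, scored 121.37 at day 0, 2453.87 at day 9 and 1822.05 at day 28. This promoter region stood at the 10.6, 93.1 and 89.5 percentiles of the 3 lists, and at the 6.34, 81.4 and 78.9 percentiles of the 18584 regions.

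High scores were also met outside the Pth1r gene body, in regions absent from the day 0 list. A region downstream of the gene (chr9:110619201-110623038) scored 3100.00 at day 9 and 2606.12 at day 28. Upstream, a region centred 7799 bp from the gene start scored 2379.13 and 653.54, and one at 11205 bp scored 3100.00 on both days. The latter lay nearer to the start of Myl3, which encodes a myosin light chain, and 4 of the 24 day 9 peaks and 2 of the 13 day 28 peaks were nearest to Myl3. Position alone does not assign a peak to either gene. Of the 24 day 9 peaks of Pth1r, 17 held the core element somewhere in their length and 5 within 50 bp of the centre. The shares of the whole day 9 list were 58.7% and 25.3%. The Pth1r peaks were wider than those of the list, with a median of 964.5 against 554 bp.

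Among the steroid receptors, Nr3c1 (ENSMUSG00000024431, chr18:39570199-39650955, minus strand) had 1, 2 and 1 peaks at days 0, 9 and 28. All lay in a single region of 3299 bp over the start of the gene, which covered 6 of its 8 annotated transcription start sites. The region scored 148.44 at day 0, 2844.53 at day 9 and 3100.00 at day 28, the 21.6, 94.5 and 97.8 percentiles of the lists and the 14.0, 85.0 and 95.4 percentiles of the 18584 regions. The fall in number from day 9 to day 28 was a joining of peaks, since the day 28 peak of 3299 bp spanned both day 9 peaks, and the covered length went from 0.691 kb to 2.64 kb and 3.30 kb. The 4 peaks held no core element in their length, and their GC content was between 61.8% and 76.8%.

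Esr1 (ENSMUSG00000019768, chr10:5340927-5734948, minus strand), the longest member, had 1, 7 and 6 peaks. No peak covered an Esr1 start site on any day, and none of its 9 regions had a peak on all 3 days. The highest-scoring region was the intron 5 region printed above (chr10:5559245-5559779), with 1147.78 at day 9 and 1086.21 at day 28. A region centred 14237 bp upstream of the gene start scored 1071.02 at day 9 and 598.84 at day 28. The single day 0 peak, in intron 4, scored 166.44. A day 28 peak of 227.29 lay over it, with no day 9 peak between them in time. The core element lay within 50 bp of the centre of 4 of the 7 day 9 peaks of Esr1 and 2 of its 6 day 28 peaks. The shares of the whole lists were 25.3% and 20.9%, and with so few peaks no difference was tested.

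Esr2 (ENSMUSG00000021055, chr12:77221406-77278246, minus strand) had 2, 4 and 1 peaks. The region over its start (chr12:77277797-77278781) was present on all 3 days, with 246.43, 469.25 and 294.60, the 45.8, 65.8 and 46.2 percentiles of the lists. Among the 18584 regions it stood at the 35.2, 28.4 and 18.6 percentiles, so the order of the days was not the same in both rankings. Both day 9 peaks upstream of it, centred 2924 and 12559 bp from the gene start, were absent at days 0 and 28 and lay over TG repeats, with 84.8% and 71.2% of the central 250 bases in such runs. Without peaks of this kind, Esr2 had 2, 2 and 1 peaks, an alternative chosen after seeing the data. In the whole day 9 list, 4.52% of peaks had at least 50% of their central bases in TG or CA runs, against 0.0354% at day 0 and 0.315% at day 28. The part of these repeats in the day 9 peaks was not tested.

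Of the thyroid hormone receptors, Thra (ENSMUSG00000058756, chr11:98601952-98630320, plus strand) had 11, 20 and 13 peaks, and they covered 14.0 kb, 14.5 kb and 15.0 kb. At day 0 it had more peaks than any other member. At day 0, 125 genes (0.559%) had 11 or more peaks. Of its 18 regions, 10 were present on all 3 days. A region in intron 1 (chr11:98611523-98613260) scored 504.70, 3216.07 and 2854.07. Its day 9 score was the highest number listed for any member peak, at the 99.9 percentile. The score 3100 is shared by 2699 day 9 peaks, and whether this peak was stronger than those is not known from the lists. A region 135 bp from its internal start, in intron 2, scored 184.65, 1257.22 and 771.28.

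The Thra window is shared with neighbouring genes. Of the 20 day 9 peaks, 10 were nearest to a Thra start site, 6 to Nr1d1, 3 to Msl1 and 1 to Med24. Nr1d1 encodes the nuclear receptor REV-ERB alpha of the circadian clock and overlaps the 3′ end of Thra on the opposite strand. Med24 encodes a subunit of the Mediator complex. A region centred 8078 bp upstream of Nr1d1 (chr11:98644185-98645266) scored 520.04, 3100.00 and 3100.00, and a region over the Nr1d1 start scored 493.47, 558.98 and 850.20. Counting the gene body alone, Thra had 4, 10 and 6 peaks.

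**Figure D2:**
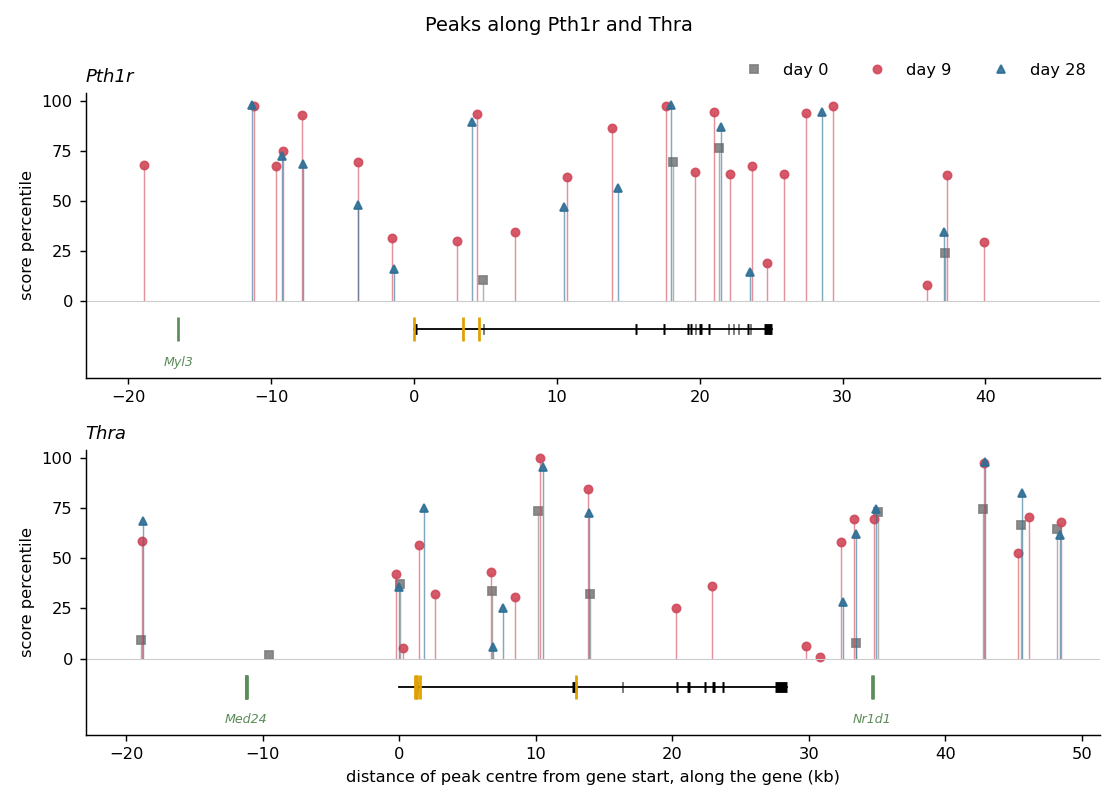
Position of each Runx2 peak along Pth1r and Thra, with distance of the peak centre from the gene start in kb on the x axis and the score percentile within the day's list on the y axis. Squares are day 0, circles day 9 and triangles day 28, the black line and boxes are the gene body and exons, amber ticks are the gene's own start sites and green ticks those of neighbours. Day 9 peaks of Pth1r above the 90 percentile lie upstream, at the internal start, within the gene and downstream, whereas its 4 day 0 peaks lie at or below the 76.2 percentile.

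Thrb (ENSMUSG00000021779, chr14:18493474-18870602, plus strand) had 7, 7 and 10 peaks and was the member whose number was not higher at day 9 than at day 0. Its promoter region (chr14:18492427-18493853) scored 264.78, 1256.49 and 1175.62, the 48.9, 84.3 and 81.5 percentiles of the lists and the 38.3, 59.9 and 64.1 percentiles of the 18584 regions. Of its 15 regions, 3 were present on all 3 days.

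The order of scores at 2 Thrb regions in intron 2 was the opposite of that at the promoter. The region printed above (chr14:18750960-18751777), centred 257894 bp inside the gene, scored 598.88 at day 0, 116.97 at day 9 and 121.25 at day 28. Its percentiles were 79.0, 11.5 and 10.3 in the lists, and 72.9, 1.65 and 1.95 among the 18584 regions. Another, centred 201820 bp inside the gene, scored 454.00, 260.89 and 421.38, the 69.8, 49.5 and 57.1 percentiles of the lists and the 61.7, 14.0 and 28.6 percentiles of the 18584 regions. Both thus ranked highest at day 0 by either measure.

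Of the cytokine-type receptors, Ghr (ENSMUSG00000055737, chr15:3267760-3533492, minus strand) had 6, 11 and 11 peaks. Its 10 regions were the same at days 9 and 28, and 5 of them were present at day 0 as well. The intron 1 region printed above (chr15:3458919-3459720), centred 74173 bp inside the gene, scored 1947.34 at day 0, 3100.00 at day 9 and 3100.00 at day 28. It stood at the 97.4, 97.4 and 97.8 percentiles of the lists, and at the 96.4, 93.0 and 95.4 percentiles of the 18584 regions. The percentiles of days 9 and 28 are middle ranks of peaks tied at 3100, so the order of the 3 days cannot be read from them. Its day 0 peak was the only 1 of the 34 day 0 member peaks at or above the 90 percentile of a list. At day 9 there were 12 of 79 and at day 28 there were 7 of 58. The next highest day 0 score at a member was the 598.88 of Thrb. The region over the Ghr start (chr15:3531709-3533775) scored 206.04, 2014.34 and 1538.93, so it was low in the list when the intron 1 region was already near the top.

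Lepr (ENSMUSG00000057722, chr4:101390009-101487957, plus strand) had 2, 4 and 3 peaks, and no peak covered its start. Regions centred 2048 and 9196 bp upstream were present on all 3 days. The nearer, printed above (chr4:101387656-101388267), scored 152.58, 420.59 and 128.56, and the farther 198.25, 173.47 and 305.66. Among the 18584 regions the nearer stood at the 15.1, 25.4 and 2.64 percentiles and the farther at the 25.4, 6.73 and 19.5 percentiles. The farther thus ranked highest at day 0, though its score was highest at day 28. A region centred in exon 14 scored 304.49 at day 9 and 205.96 at day 28, and an intron 10 region scored 172.68 at day 9. The highest percentile of a Lepr peak was 63.2.

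**Figure D3:**
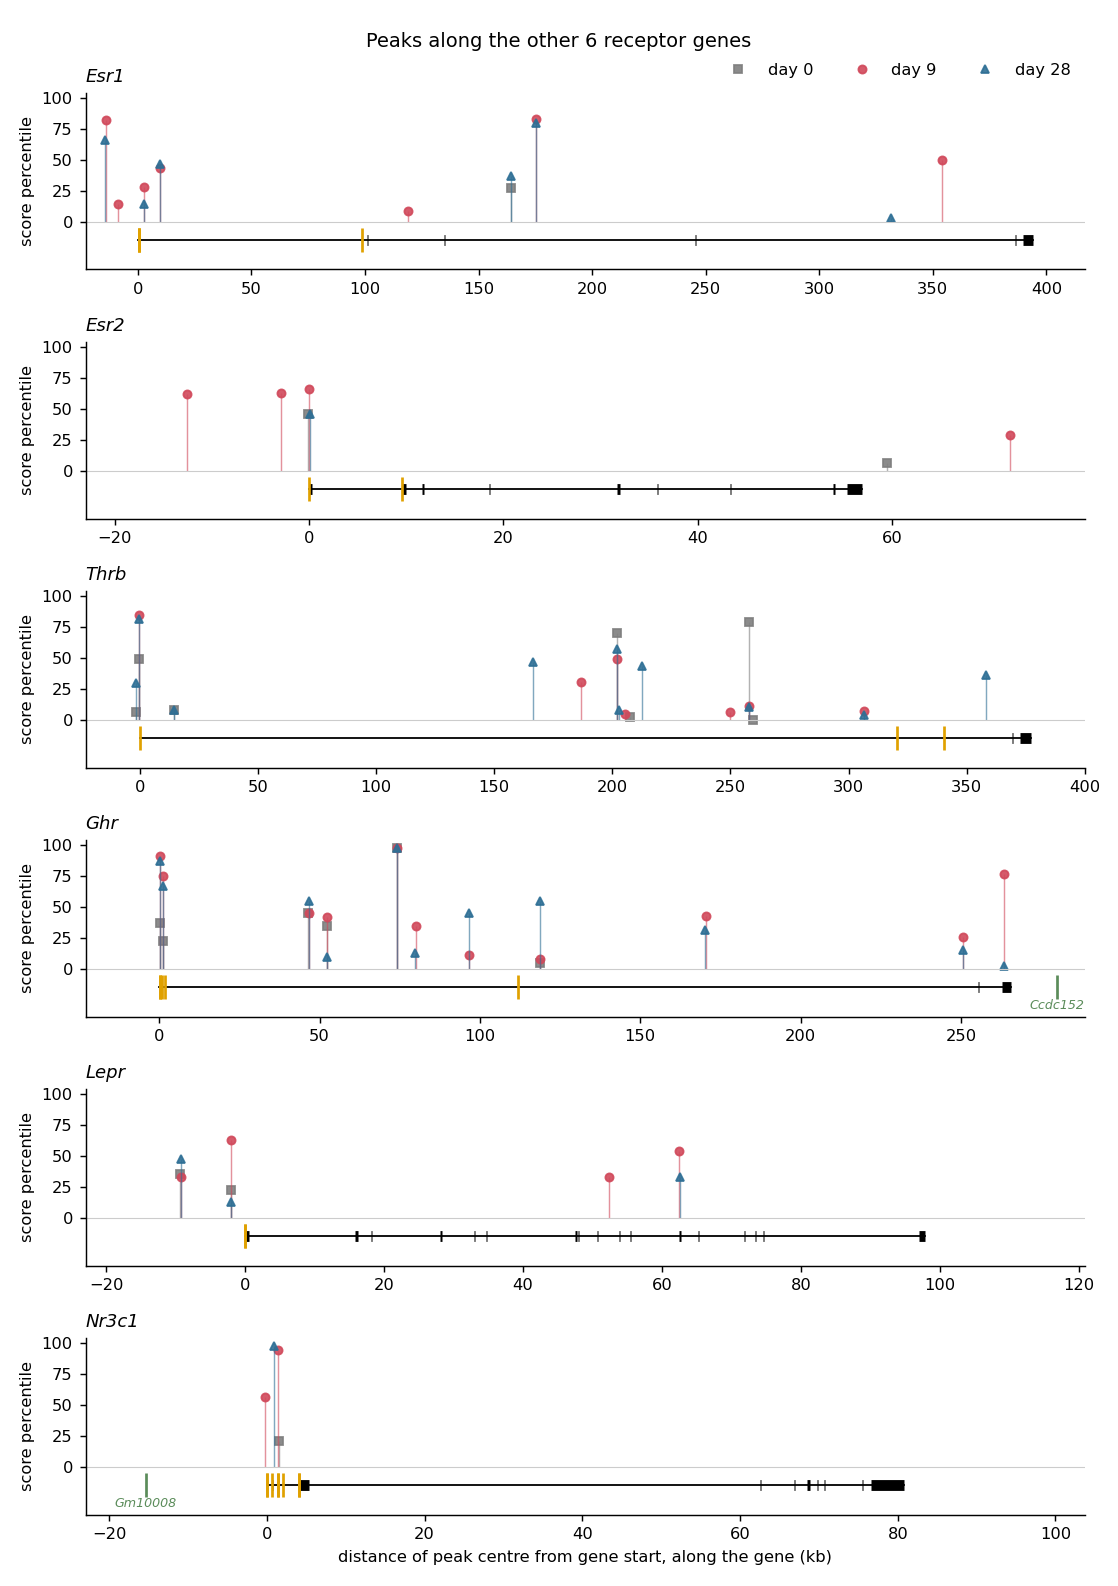
Position of each Runx2 peak along Esr1, Esr2, Thrb, Ghr, Lepr and Nr3c1, with distance of the peak centre from the gene start in kb (x axis, a scale of its own for each gene) and the score percentile within the day's list (y axis). Symbols and tracks are as in the map of Pth1r and Thra. The Ghr intron 1 region is near the top on all 3 days, the Thrb intron 2 region is at the 79.0 percentile at day 0, and all Nr3c1 peaks lie at the start of the gene.

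Gene starts and the top of the score range were then compared across the members. A peak covered a start site of 5 of 8 members at day 0 (Pth1r, Nr3c1, Esr2, Thrb and Ghr), against 40.7% of all genes. Thra was added at days 9 and 28, giving 6 of 8, against 48.4% and 48.3% of all genes. A peak scoring 3100 or more was listed for none of the 8 at day 0, where 1.08% of genes had one, for 3 of 8 at day 9 (Pth1r, Thra and Ghr; 16.7% of genes) and for 4 of 8 at day 28 (these and Nr3c1; 10.9% of genes). With 8 genes, such shares are a description and no difference from all genes was tested.

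The number of peaks did not follow gene length among the members. Pth1r and Thra are the shortest, with windows of 65058 and 68369 bp, and had 36.9 and 29.3 day 9 peaks per 100 kb. Esr1 and Thrb, with windows of 434022 and 417129 bp, had 1.61 and 1.68. The median over all genes was 3.49 per 100 kb. Nr3c1 had 1.66, Esr2 4.13, Ghr 3.60 and Lepr 2.90. Among genes within 10% of the same length, the share with at least as many day 9 peaks as the member was 0.0840% for Pth1r, 0.347% for Thra, 28.3% for Ghr, 44.2% for Esr1, 45.6% for Thrb, 43.5% for Esr2, 55.7% for Lepr and 76.9% for Nr3c1.

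**Figure D4:**
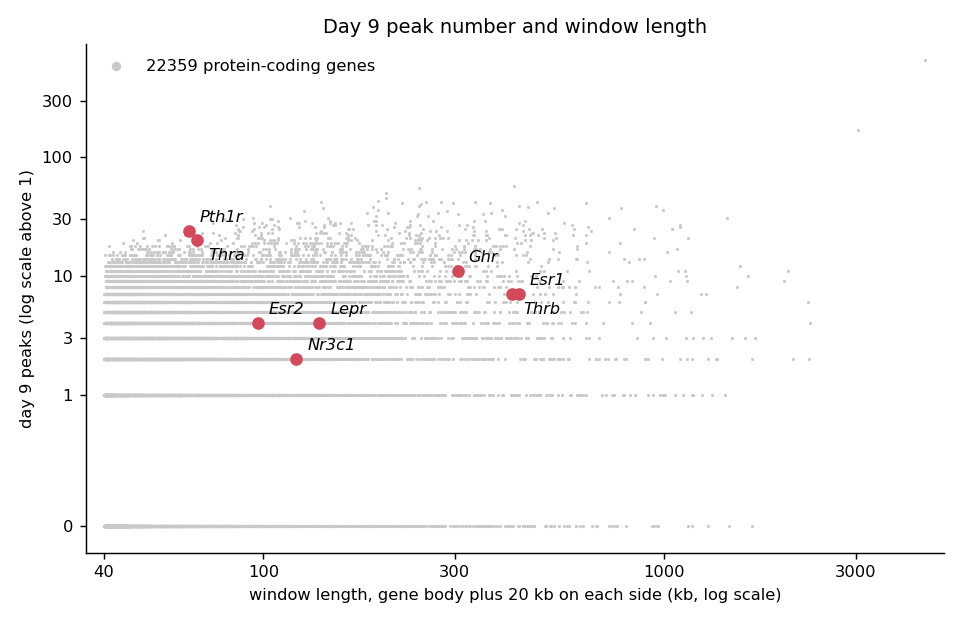
Number of day 9 peaks (y axis, log scale above 1) against the length of the gene window in kb (x axis, log scale) for 22359 protein-coding genes (grey), with the 8 receptor genes in red. Pth1r with 24 and Thra with 20 peaks lie at the upper edge of genes with short windows, and the other 6 lie among genes of their own length.

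Genes with the same number of peaks on all 3 days were sought as the measure of likeness, over 3 lists. No other gene matched Pth1r, Thra, Thrb or Ghr. The numbers of Nr3c1 were shared by 647 genes, those of Lepr by 226, of Esr2 by 33 and of Esr1 by 9. The matches closest in length were Fnbp1l, Fam46d and Galnt1 for Nr3c1, Elf1, Vcl and 3110057O12Rik for Lepr, Zc3h6, Tnfrsf8 and Plcg1 for Esr2, and Vps41, Clmn and Mov10l1 for Esr1.

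Of the 82 member regions, 26 (31.7%) had a peak on all 3 days, 22 (26.8%) at days 9 and 28, 22 (26.8%) at day 9 alone, 5 at day 28 alone, 4 at day 0 alone, 3 at days 0 and 28, and 0 at days 0 and 9 alone. Over all regions of the lists, 27.4% were present on all 3 days, 21.1% at days 9 and 28, 34.5% at day 9 alone, 7.59% at day 28 alone, 5.60% at day 0 alone, 2.06% at days 0 and 28 and 1.69% at days 0 and 9. The members differed among themselves. Ghr had 5 regions of each of the first 2 kinds and no other, Thra had 10 of 18 on all 3 days, and Pth1r had 4 of 20 on all 3 days, 9 at days 9 and 28 and 7 at day 9 alone. The day on which a region ranked highest depended on the ranking. By percentile in the lists it was day 0 for 2 of the 26 regions present throughout, day 9 for 14 and day 28 for 10, against 21.0%, 55.1% and 23.9% of the 18584 regions. Ranked among those regions, it was day 0 for 11, day 9 for 7 and day 28 for 8 (42.3%, 26.9% and 30.8%), against 39.1%, 29.7% and 31.2%, so the member shares lay near those of all regions.

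**Figure D5:**
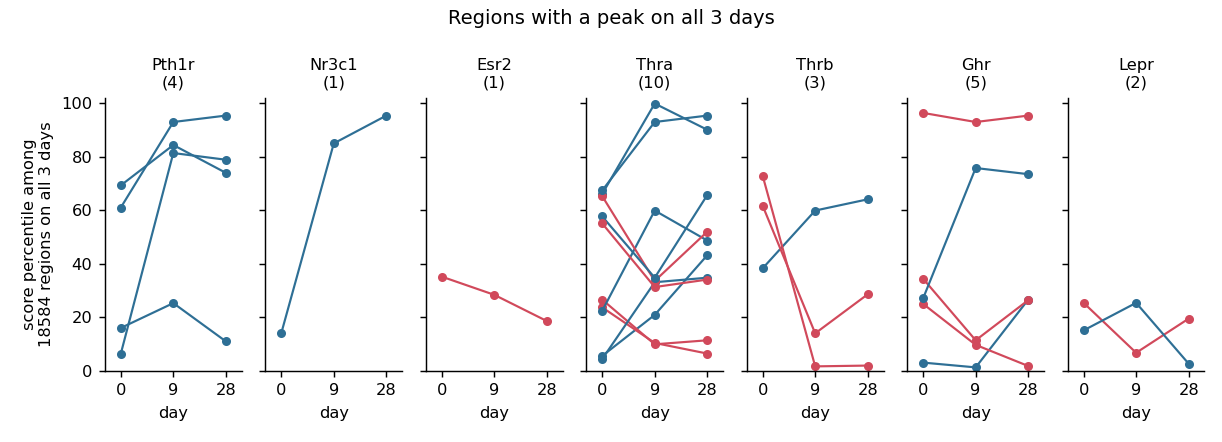
Score percentile among the 18584 regions with a peak on all 3 days (y axis) at days 0, 9 and 28 (x axis) for each of the 26 such regions of the members, by gene, with the number of regions in brackets; each line is 1 region and shows the highest-scoring peak of each day. Red marks the 11 regions with the highest percentile at day 0, among them both Thrb intron 2 regions, and Esr1 has no region on all 3 days.

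Member peaks lay mostly in introns. Centres in introns made up 18 of 34 peaks (52.9%) at day 0, 43 of 79 (54.4%) at day 9 and 36 of 58 (62.1%) at day 28, against 36.4%, 42.9% and 40.6% of the whole lists. Intergenic centres made up 2.94%, 2.53% and 1.72%, against 24.0%, 25.4% and 24.8%, which the window of 20 kb largely fixes. A window with few intergenic centres also raises the intron share, so that share is not to be read as a preference for introns. The promoter, from 1000 bp before to 150 bp after a start site and outside exons and introns, held 4, 5 and 3 member peaks (11.8%, 6.33% and 5.17%, against 10.9%, 4.52% and 6.36% of the lists). Counted by any overlap with a promoter, the member shares were below those of the lists, at 23.5%, 15.2% and 17.2% against 35.7%, 20.2% and 27.3%. Exons held 3, 11 and 5 (8.82%, 13.9% and 8.62%, against 18.1%, 15.8% and 17.3%).

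The core element lay within 50 bp of the centre of 10 of 34 member peaks at day 0 (29.4%, exact 95% interval 15.1 to 47.5%), 20 of 79 at day 9 (25.3%, 16.2 to 36.4%) and 15 of 58 at day 28 (25.9%, 15.3 to 39.0%). The shares of the whole lists were 16.0%, 25.3% and 20.9%, all inside these intervals, which cover counting error only and take peaks as independent. Somewhere in the peak, 64.7%, 63.3% and 75.9% of member peaks held it, against 61.4%, 58.7% and 61.6% of the lists. Near the centre, it was found in 1 of 4, 1 of 5 and 0 of 3 member peaks in promoters, against 4.72%, 7.27% and 5.73% of all promoter peaks. In exons it was found in 0 of 3, 0 of 11 and 1 of 5, against 5.20%, 9.85% and 7.14% of all exon peaks.

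Elements of nuclear receptors and of AP-1 were searched in the same windows, on both strands, and neither contains the other or the core element. AGGTCA, the repeat unit bound by thyroid hormone and estrogen receptors, lay near the centre of 2, 0 and 2 member peaks, against 5.87%, 5.87% and 5.80% of the lists. TGANTCA, the element of AP-1 factors, where N is any base, lay near the centre of 1 of 34, 8 of 79 and 8 of 58 peaks, or 2.94%, 10.1% and 13.8%, against 6.07%, 3.69% and 4.63% of the lists. Thrb supplied 1, 2 and 3 of these peaks, and Lepr 0, 2 and 1. The others lay at Pth1r, Esr1, Esr2, Thra and Ghr. No test of these shares was made, and a match shows letters and not a bound factor.

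Genes that work with the receptors were counted in lists, to be read against the 65.0%, 77.0% and 71.2% of all genes with a peak at days 0, 9 and 28. Of 14 genes of parathyroid hormone signalling, 13 matched 1 gene record, and 13, 13 and 12 of them had a peak at days 0, 9 and 28, with a median of 3, 5 and 4 peaks. Pth, which encodes the hormone, had 2, 1 and 2 peaks, and Pthlh, which encodes the related protein PTHrP, had 4, 2 and 2. The G protein genes Gnas and Gna11 had 5, 9 and 6 and 4, 14 and 8, and Gnaq had 6, 3 and 5. Prkaca, the catalytic subunit of protein kinase A, had 4, 9 and 6. More day 9 than day 0 peaks were listed for 8 of the 13, against 60.3% of all genes, and none of them reached the 24 of the receptor itself.

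Of 19 genes of steroid receptors and their partners, 17, 18 and 18 had a peak, with a median of 2, 5 and 4, and 16 had more at day 9 than at day 0, against 60.3% of all genes. Fkbp5, a co-chaperone of the glucocorticoid receptor and a known glucocorticoid target, had 6, 16 and 7. The progesterone receptor gene Pgr had 0, 1 and 0 peaks, and the mineralocorticoid receptor gene Nr3c2 1, 3 and 1. Of 10 genes of the thyroid hormone pathway, 5, 8 and 7 had a peak, with a median of 1, 3 and 3. Dio2, the deiodinase that activates thyroid hormone, and the transporter gene Slco1c1 had 0 peaks on all 3 days, and Nr1d1, whose window overlaps that of Thra, had 8, 15 and 10.

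Of 13 genes of growth hormone and leptin receptor signalling, 12, 13 and 13 had a peak, with a median of 3, 6 and 4. Socs3, which encodes an inhibitor of cytokine receptor signalling, had 11, 16 and 13 peaks, and Ptpn1, a phosphatase that acts on Jak2, had 7, 16 and 7. Jak2, the kinase of both receptors, had 2 on each day. Stat5b had 7, 11 and 12, and Igf1, the growth factor gene that growth hormone induces, had 2, 3 and 2. Over the 8 members the medians were 3, 7 and 8 peaks, and over all genes 1, 2 and 2. These medians take no account of gene length. Among genes of like length, 43.5% to 76.9% had at least as many day 9 peaks as Esr1, Esr2, Thrb, Lepr and Nr3c1. The share was 0.0840% for Pth1r, 0.347% for Thra and 28.3% for Ghr.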

How the data were processed

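Runx2 ChIP-Seq was analysed from 1 deposited peak list per day. Per the labels and the study's methods, the authors mapped 36 base reads to mm9 with Bowtie 0.12.8 after base calling with CASAVA 1.6, pooled 2 libraries per day, called peaks with MACS 1.4.1 against day 9 input, and kept peaks with a p-value below 1e-10. The deposited score is 10 times the negative log10 of that p-value. Scores depend on read depth, which the lists do not hold, so they were ranked within a list. Input was not analysed here.

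Gene models were protein-coding transcripts of GENCODE M1 on NCBIM37 (mm9). The 8 genes, the lists of partner genes and the counts were chosen with earlier results of these data known. Regions were named where they lay at a start site, were present on all 3 days or ranked highest at their gene. Of 14 listed parathyroid hormone genes, Pde4d had more than 1 gene record and was left out. Shares carry Clopper-Pearson 95% intervals. Alternatives covered the p-value, the window, list length, joining of peaks, motif window and location order, and leaving out peaks over TG repeats and ranking among regions with a peak on all 3 days were added after seeing the data. Counting, joining, location and motif steps were tested on simulated data. The scripts ran in Python 3.11.15 with NumPy 2.4.6, figures were drawn with Matplotlib 3.10.9 and intervals were computed with SciPy 1.17.1.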

Additional observations from a re-analysis of the deposited data

How the results depend on the processing

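Requiring a p-value of 1e-20 left 15 and 51 member peaks at days 0 and 9, and 1e-50 left 5, 28 and 23 at days 0, 9 and 28. The gene body alone held 22 and 49 at days 0 and 9. The 25457 top-scoring peaks of each list held 39 and 36 at days 9 and 28. Members with a day 0 peak were 5 at 1e-20 and 4 at 1e-50. With lists of equal length, 3 members had more day 9 than day 0 peaks and 2 had fewer day 28 than day 9 peaks; the latter were also 2 at 1e-50. Merged regions were 53 at 1e-20 and 29 at 1e-50, and those on all 3 days 14, 4, and 16 with lists of equal length. The core element lay within 100 bp of the centre of 38.0% and 41.4% of peaks at days 9 and 28, and anywhere in 64.7%, 63.3% and 75.9% at days 0, 9 and 28. Peaks overlapping a promoter were 8, 12 and 10 (23.5%, 15.2% and 17.2%, against 35.7%, 20.2% and 27.3% of the lists). With promoters placed before exons and introns, 11 and 7 lay there at days 9 and 28. Of 240 numbers per gene and day under 10 alternatives, 174 were within 1.5 times the reported number. The lists hold no depth, and 1 pooled list per day limits every comparison between days. The raw read totals that the study reports for each stage were not used to adjust these comparisons. No paired analysis was possible because each day has a single pooled list.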

Other observations

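Repeats of TG or CA dinucleotides took up at least 50% of the central 250 bases of 2740 of 60596 day 9 peaks (4.52%), against 9 of 25457 at day 0 and 127 of 40330 at day 28. At the 8 receptors there were 3 such peaks, all at day 9, namely the upstream peaks of Esr2 and a Thrb intron 2 peak with a score of 106.51. Without them Thrb had 7, 6 and 10 peaks and 6 of the 8 members had more peaks at day 9 than at day 0.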
